A study of Mus musculus with 3 samples.

Results

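The 8 inhibitory checkpoint genes examined here were Ctla4, Lag3, Tigit, Pdcd1, Havcr2, Btla, Cd274 and Pdcd1lg2, taken by symbol from the 32285 genes of the count matrices. All 8 were found, 6 encoding receptors and 2 encoding ligands. Their transcripts were counted in droplet single-cell libraries of mesenteric lymph nodes, the nodes that drain the gut, from mice. There were 3 libraries, 1 for each group. LysoPS-OVA was 1 µg ovalbumin, a model food antigen, with lyso-phosphatidylserine, which the study's title gives as nanoparticles. Free OVA was 1 µg ovalbumin alone, and the control, titled untreated, was 5 mM citrate buffer. All animals were fed orally for 4 weeks, and each library pooled the nodes of 6 animals. The sources used here do not give strain, age or sex. The comparisons ask how oral LysoPS-OVA and free OVA libraries differ from citrate buffer in genes tied to immune tolerance.

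Checkpoint receptors restrain lymphocytes that have met antigen. Ctla4 encodes CTLA-4, which competes with CD28 for CD80 and CD86 and is used by regulatory T cells to strip these ligands from dendritic cells. Pdcd1 encodes PD-1, whose ligands PD-L1 and PD-L2 come from Cd274 and Pdcd1lg2, and BTLA binds HVEM, the product of Tnfrsf14. Lymph nodes draining the gut are a known site where regulatory T cells specific for food antigens arise.

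Animals were pooled before sequencing and each group is 1 library, so their spread is unknown and differences carry no test. Every difference is between one library and another. Intervals are 95% intervals for counting error only, exact Poisson for levels, conditional binomial for ratios and Clopper-Pearson for shares. Levels are given in CPM, a gene's UMIs over all UMIs of a marker gate on the scale usual in the field, a gate being a set of barcodes chosen by marker transcripts. Of 21 gates defined, 10 held at least 50 barcodes in every library and were compared. The labels call the cells intestinal, whereas T and B cell markers led the gated barcodes.

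The LysoPS-OVA library held 84089686 UMIs, the free OVA library 81559237 and the citrate buffer library 96616683. After filtering, 16025, 21949 and 21871 barcodes were kept, in the same order of libraries, with median UMIs of 4134, 1815 and 2643. The libraries differed in makeup: barcodes with Malat1 under 0.5% of UMIs, a sign of little nuclear RNA, were 21.6% of LysoPS-OVA, 51.6% of free OVA and 27.8% of citrate buffer barcodes. Between 100 and 123 barcode sequences were shared by any pair of libraries. Xist stood at 136 CPM in LysoPS-OVA, 144 in free OVA and 315 in citrate buffer, and Y-linked genes summed to 284, 214 and 206 CPM, so transcripts of both kinds were present in each library. The part of sex in any result was not tested.

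Markers outside the gating rules were checked in the main gates. In the Foxp3-positive T gate Ikzf2, which encodes Helios and was not used for gating, stood at 1269, 1084 and 1326 CPM in LysoPS-OVA, free OVA and citrate buffer, against 12.1, 11.1 and 40.6 CPM in the other B gate. Socs2, likewise unused, stood at 274, 265 and 266 CPM in the migratory dendritic cell (DC) gate of those libraries, against 2.71, 2.77 and 4.51 CPM in other B. This DC gate was shallow, with median UMIs from 1436 to 1719, and 84.0% to 89.0% of its barcodes had low Malat1. Fas did not mark germinal centre B cells in every library, at 74.6, 56.1 and 68.1 CPM against 50.5, 47.0 and 69.8 CPM in naive CD4 T cells. Bcl6, not used for this gate, was higher there in every library, at 149, 157 and 140 CPM against 32.7, 30.1 and 30.7 CPM.

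The genes lie at 5 chromosomes of GRCm38, in GENCODE release 21. Ctla4 occupies chr1:60887000-60915832 on the plus strand between its relatives Cd28 and Icos, and the pseudogene Rpl18-ps1 overlaps it. Pdcd1 lies at chr1:94038305-94052553 on the minus strand. Lag3, at chr6:124904361-124911705 on the minus strand, lies 16140 bases from Cd4. Tigit is at chr16:43648867-43664146 on the minus strand, Btla at chr16:45224315-45257670 and Havcr2 at chr11:46454935-46481255, both on the plus strand. Cd274 at chr19:29367455-29388095 and Pdcd1lg2 at chr19:29410919-29471161 lie on the plus strand, 22824 bases apart. Annotated antisense genes overlap both, AC119228.1 with Cd274 and A930007I19Rik with Pdcd1lg2. The sources used here do not say whether the counting used strand, so the ligand counts are uncertain to that extent.

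Promoter sequence, 250 bases upstream of the RefSeq start in GRCm38.p6, was found for 7 of the 8 genes, all except Lag3. The neighbouring ligands are shown because their transcripts differed together in B cells, and Ctla4 and Pdcd1 because they differed in Foxp3-positive T cells. Capitals mark matches to the motifs searched on both strands. The windows are chr19:29367188-29367437 (plus) for Cd274, chr19:29410669-29410918 (plus) for Pdcd1lg2, chr1:60908775-60909024 (plus) for Ctla4 and chr1:94052554-94052803 (minus) for Pdcd1, each written 5′ to 3′ on the gene's strand.
Cd274: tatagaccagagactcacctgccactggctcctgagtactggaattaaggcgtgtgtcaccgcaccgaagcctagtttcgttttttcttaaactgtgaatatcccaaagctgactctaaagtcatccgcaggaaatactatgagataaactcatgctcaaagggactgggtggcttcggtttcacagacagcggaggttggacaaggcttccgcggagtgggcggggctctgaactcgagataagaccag
Pdcd1lg2: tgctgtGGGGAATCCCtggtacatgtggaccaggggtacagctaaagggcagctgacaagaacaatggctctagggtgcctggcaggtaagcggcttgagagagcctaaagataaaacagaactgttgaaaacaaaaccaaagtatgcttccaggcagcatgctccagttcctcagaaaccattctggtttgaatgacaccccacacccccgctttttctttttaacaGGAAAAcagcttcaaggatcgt
Ctla4: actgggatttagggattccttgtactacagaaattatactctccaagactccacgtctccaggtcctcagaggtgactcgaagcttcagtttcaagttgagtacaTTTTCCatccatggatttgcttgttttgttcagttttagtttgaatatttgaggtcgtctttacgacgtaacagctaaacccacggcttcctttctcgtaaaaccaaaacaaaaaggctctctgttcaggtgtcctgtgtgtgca
Pdcd1: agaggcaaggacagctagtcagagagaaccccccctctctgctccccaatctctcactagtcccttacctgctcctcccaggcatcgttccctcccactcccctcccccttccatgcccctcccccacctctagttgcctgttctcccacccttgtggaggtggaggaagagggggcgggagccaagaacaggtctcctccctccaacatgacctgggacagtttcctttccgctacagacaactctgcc

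The motifs were the NFAT core GGAAAA, held by 20.4% of 32851 promoters of the same length, the kappa B core, GGG and CC parted by 5 bases of any kind (45.8%), the AP-1 site TGANTCA (6.75%), the STAT site TTCNNNGAA (7.02%), the forkhead site TGTTTAC (3.17%) and the interferon response core, GAAA repeated after 2 bases of any kind (2.98%). No match of one motif overlapped another in the windows shown. Pdcd1lg2 held a kappa B core that begins 244 bases before the start and an NFAT core that begins 22 bases before it. Ctla4 held an NFAT core, on the opposite strand, that begins 145 bases before the start. The Cd274 and Pdcd1 windows held none of these letters. Tigit, not shown, held an NFAT core and Havcr2 an AP-1 site. A match describes letters and is not a bound site.

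Among the 10 compared gates Ctla4 was highest in Foxp3-positive T cells in all 3 libraries, and there it was higher in LysoPS-OVA. It stood at 1152 CPM in LysoPS-OVA (1109 to 1196), 1023 in free OVA (974 to 1073) and 760 in citrate buffer (716 to 806). The levels do not overlap within counting error. LysoPS-OVA was 1.52 times citrate buffer (1.41 to 1.63) and 1.13 times free OVA (1.06 to 1.20), and free OVA was 1.35 times citrate buffer (1.25 to 1.45). Follicular helper-like CD4 T cells, marked by genes such as Cxcr5 and Bcl6, came next at 326, 374 and 264 CPM in LysoPS-OVA, free OVA and citrate buffer. Their range over libraries lay above those of other T, effector-memory CD8, naive CD4 and naive CD8 T, each of which overlapped its neighbour in that order. Effector-memory CD4 T cells, too few to compare at 59, 23 and 22 barcodes, held 651, 543 and 733 CPM, and in citrate buffer this overlapped the Foxp3-positive T level within counting error.

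The share of Foxp3-positive T barcodes with a Ctla4 UMI kept the order of the levels. After each barcode was thinned to 1000 UMIs it was 56.6% of 431 barcodes in LysoPS-OVA (51.8 to 61.3), 45.5% of 301 in free OVA (39.8 to 51.3) and 40.7% of 312 in citrate buffer (35.2 to 46.4). Unlike the levels, the free OVA and citrate buffer shares overlapped within counting error. Thinning left out 3, 13 and 1 shallower barcodes. Unthinned shares were 83.2%, 68.8% and 65.5%. In the other B gate, which should lack Ctla4, thinned shares were 1.05%, 0.680% and 1.27%, with median UMIs of 4439, 5270 and 3654 against 4966, 5170 and 4292 in the Foxp3-positive T gate.

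The Ctla4 ratio was larger in barcodes with 1 Foxp3 UMI than in those with more. A split by Foxp3 UMIs, chosen after the data were seen, gave 980 CPM in LysoPS-OVA, 775 in free OVA and 542 in citrate buffer among barcodes with 1 Foxp3 UMI, with LysoPS-OVA at 1.81 times citrate buffer (1.63 to 2.01). Among barcodes with 2 or more the levels were 1345, 1302 and 1207 CPM and the ratio 1.11 (1.01 to 1.23). Barcodes with 2 or more made up 41.9% of the gate in LysoPS-OVA, 38.2% in free OVA and 30.03% in citrate buffer. With every other lineage's markers at 0 UMIs, the ratio over the whole gate was 1.21. The difference between the Foxp3 classes was not tested.

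**Figure D1:**
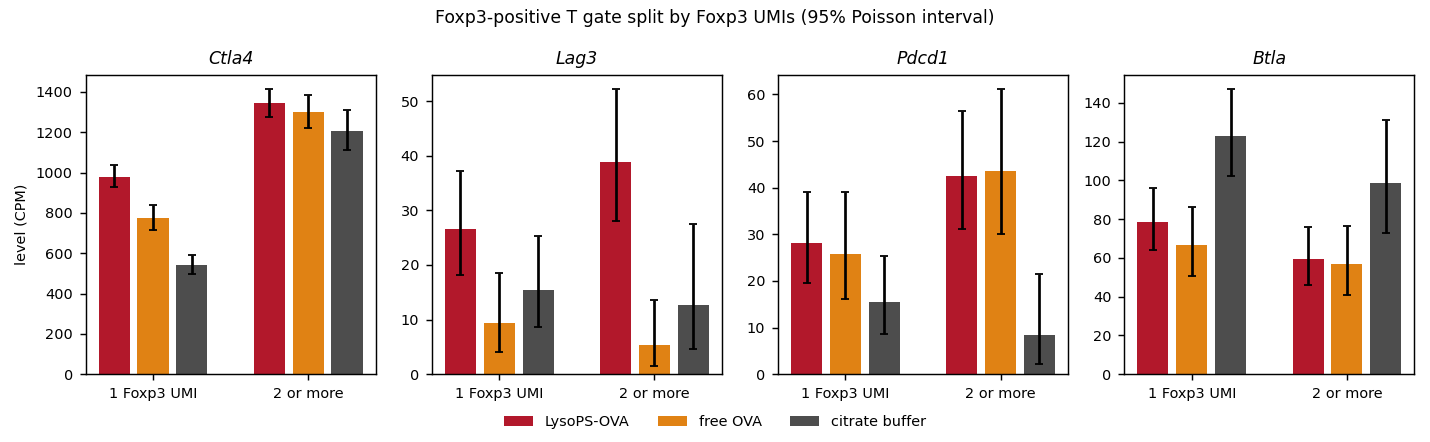
Level in CPM (bars, with 95% Poisson intervals) of 4 receptor genes in Foxp3-positive T barcodes with 1 or with 2 or more Foxp3 UMIs, for LysoPS-OVA, free OVA and citrate buffer. Ctla4 is 980 CPM in LysoPS-OVA and 542 in citrate buffer at 1 UMI, and 1345 and 1207 CPM at 2 or more, while Pdcd1 is lowest in citrate buffer in both.

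Lag3 and Pdcd1, both receptors of activated T cells, were also higher in the Foxp3-positive T gate of LysoPS-OVA than of citrate buffer, at low counts. Lag3 gave 76 UMIs (32.3 CPM) in LysoPS-OVA, 12 (7.45 CPM) in free OVA and 21 (14.5 CPM) in citrate buffer. LysoPS-OVA alone stood high, at 2.23 times citrate buffer (1.36 to 3.81) and 4.34 times free OVA (2.34 to 8.76). Pdcd1 gave 82 UMIs (34.8 CPM) in LysoPS-OVA, 55 (34.1 CPM) in free OVA and 19 (13.1 CPM) in citrate buffer. Here both ovalbumin libraries stood above citrate buffer, by 2.66 times (1.60 to 4.64) in LysoPS-OVA and 2.61 times (1.52 to 4.65) in free OVA. With 2 or more Foxp3 UMIs, Lag3 in LysoPS-OVA was 3.07 times citrate buffer (1.30 to 8.84), from 43 and 6 UMIs. Pdcd1 was 5.04 times (1.84 to 19.3), from 47 and 4. With 1 Foxp3 UMI, which most barcodes had, the intervals spanned 1, at 1.72 times (0.910 to 3.41) for Lag3 and 1.83 times (0.972 to 3.60) for Pdcd1. Unthinned, 9.91% of LysoPS-OVA barcodes held a Lag3 UMI, against 2.87% in free OVA and 5.43% in citrate buffer. In other B these shares were 0.259%, 0.163% and 0.158%. A Pdcd1 UMI was held by 11.5% of LysoPS-OVA, 9.87% of free OVA and 4.79% of citrate buffer barcodes unthinned, and by 2.78%, 3.32% and 0.641% thinned, against 0.138%, 0.0817% and 0.237% unthinned in other B. Thinned Lag3 shares of 2.09%, 0.997% and 1.28% overlapped within counting error, and so did the thinned Pdcd1 shares. In this gate barcodes with low Malat1 made up 4.38% in LysoPS-OVA, 25.8% in free OVA and 8.31% in citrate buffer. Among intact barcodes, those with Malat1 and ribosomal transcripts above the low limits, LysoPS-OVA was 1.53 times citrate buffer for Lag3 (50 and 19 UMIs) and 2.26 times for Pdcd1 (62 and 16 UMIs).

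Tigit, a receptor for CD155, gave 19.97, 18.6 and 13.8 CPM in the Foxp3-positive T gate of LysoPS-OVA, free OVA and citrate buffer, from 47, 30 and 20 UMIs. Their intervals overlapped, and the gene missed the minimum of 30 UMIs and 20 CPM set for ratios. Havcr2, which encodes TIM-3, gave 7, 1 and 2 UMIs there.

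Btla was lower in LysoPS-OVA and in free OVA than in citrate buffer in 4 T gates (Foxp3-positive, naive CD4, naive CD8 and other T), with ratio intervals below 1. The same held in germinal centre B cells, where LysoPS-OVA was 0.683 times (0.597 to 0.781) and free OVA 0.788 times (0.699 to 0.888) citrate buffer. It also held in migratory DCs, at 0.733 times (0.597 to 0.895) and 0.693 times (0.598 to 0.803), and in other B. In follicular helper-like CD4 T cells LysoPS-OVA was 0.814 times citrate buffer (0.653 to 1.01) and in effector-memory CD8 T cells 0.766 times (0.441 to 1.30), both spanning 1. Free OVA was 0.638 times citrate buffer (0.491 to 0.826) in the former and 0.767 times (0.387 to 1.43) in the latter. In the Foxp3-positive T gate Btla stood at 69.7 CPM in LysoPS-OVA (59.4 to 81.2), 62.1 in free OVA (50.5 to 75.5) and 115 in citrate buffer (98.4 to 134). Citrate buffer alone stood high, and LysoPS-OVA was 0.605 times (0.485 to 0.755) and free OVA 0.539 times (0.416 to 0.695) its level. In naive CD8 T cells Btla was 46.7 and 44.0 CPM in the ovalbumin libraries and 70.7 in citrate buffer, or 0.660 and 0.622 times. In naive CD4 T cells the ratios to citrate buffer were nearer 1, 0.782 in LysoPS-OVA and 0.781 in free OVA. B cell markers moved with it: all 4 were seen in the Foxp3-positive T gate, with sums of 116, 91.2 and 172 CPM, or 2.74%, 2.42% and 4.61% of their level in other B. Per B marker UMI, Btla was 0.599, 0.680 and 0.668 in Foxp3-positive T cells of LysoPS-OVA, free OVA and citrate buffer, against 0.136, 0.130 and 0.160 in other B. In naive CD8 T cells B markers summed to 97.1, 67.6 and 152 CPM, and Btla per B marker UMI was 0.480, 0.650 and 0.464, not lower in the ovalbumin libraries. In naive CD4 T cells it was 0.758, 0.883 and 0.604, higher in the ovalbumin libraries. The part of B cell transcripts in the ratios of these T gates, Foxp3-positive T included, was not tested. With every other lineage's markers at 0 UMIs, Btla of Foxp3-positive T cells in LysoPS-OVA was 0.525 times citrate buffer (34 and 33 UMIs). In free OVA it was 0.685 times (35 and 33 UMIs). No interval is given for these ratios, which rest on low counts.

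**Figure D2:**
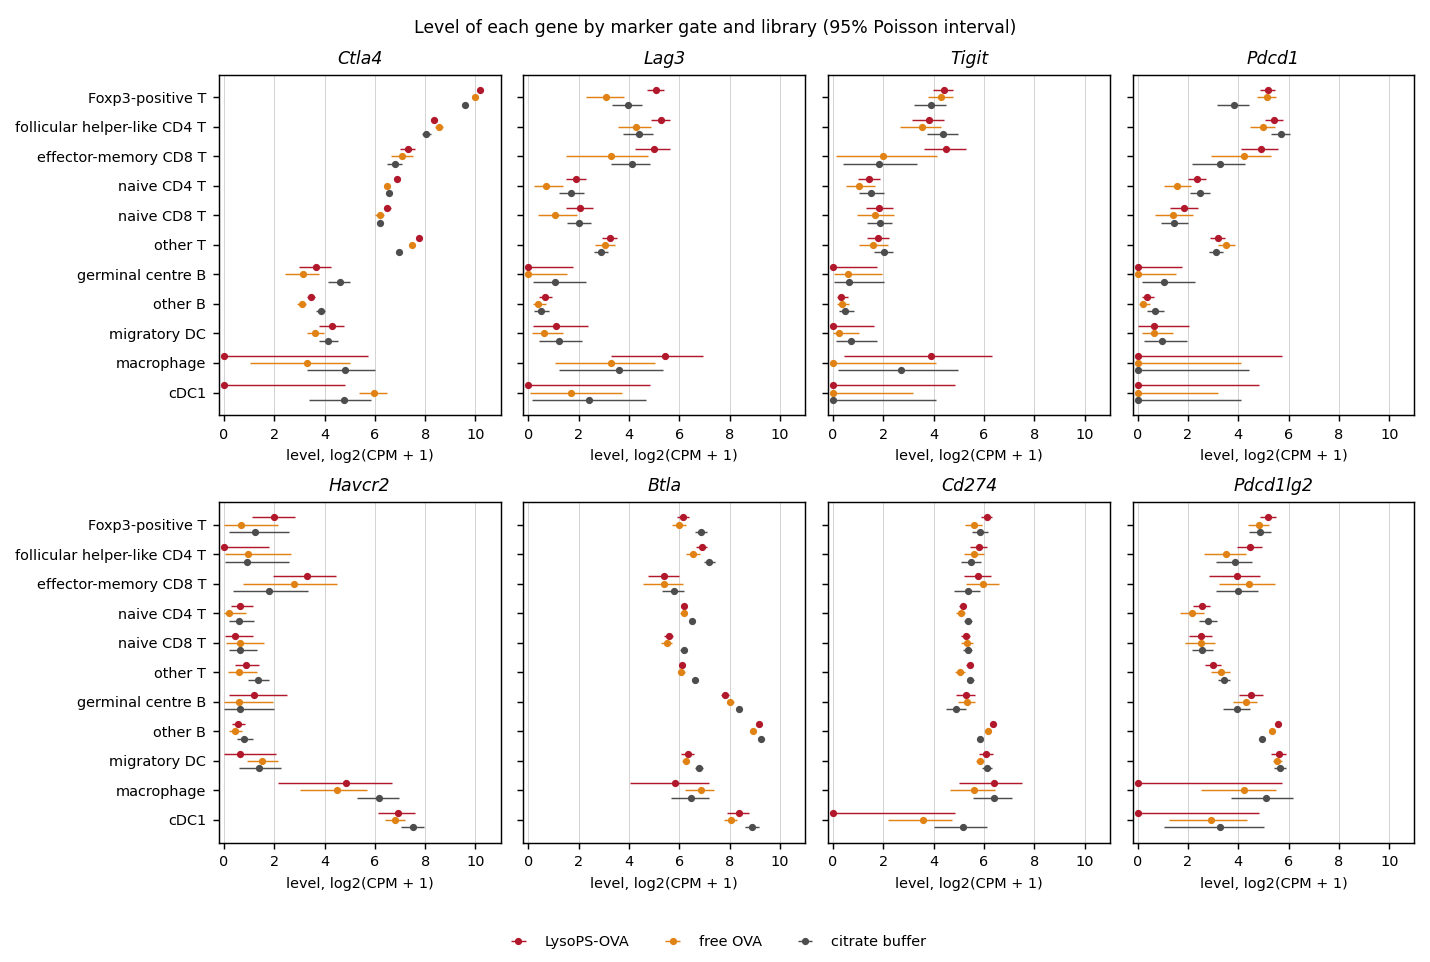
Level of each gene as log2(CPM + 1) in 11 marker gates (rows) for LysoPS-OVA, free OVA and citrate buffer (points, with 95% Poisson intervals). Ctla4 peaks in Foxp3-positive T, Btla in other B and Havcr2 in cDC1, a gate with under 50 barcodes in some libraries.

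In follicular helper-like CD4 T cells, Pdcd1 was 42.1 CPM in LysoPS-OVA (32.3 to 53.9), 30.5 in free OVA (20.9 to 43.1) and 50.5 in citrate buffer (38.1 to 65.5). The intervals overlapped, and LysoPS-OVA was 0.834 times citrate buffer (0.571 to 1.22). Free OVA was 0.605 times citrate buffer (0.379 to 0.951). Lag3 was 37.3, 18.1 and 19.8 CPM, and LysoPS-OVA was 1.88 times citrate buffer (1.13 to 3.24) and 2.06 times free OVA (1.20 to 3.67). A few barcodes carried these counts: the 5 with the most Lag3 held 56.4% of its UMIs in LysoPS-OVA, 63.2% in free OVA and 63.6% in citrate buffer. The gate itself differed between libraries. Icos and Sh2d1a, helper T cell genes not used for gating, stood at 202, 222 and 324 CPM and at 129, 146 and 257 CPM in LysoPS-OVA, free OVA and citrate buffer, and barcodes with under 10% ribosomal transcripts made up 6.28%, 4.79% and 23.5%. Their part in the ratios was not tested. Btla there was 118, 92.6 and 145 CPM, and Pdcd1lg2 21.04, 10.5 and 13.5 CPM from 31, 11 and 15 UMIs.

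Receptor genes shared barcodes in this gate. In barcodes with a Pdcd1 UMI, Lag3 CPM was 4.50 times that of the rest in LysoPS-OVA, 5.27 times in free OVA and 4.80 times in citrate buffer. Only 27, 15 and 28 barcodes held Pdcd1, and the intervals were wide, at 2.50 to 7.96, 1.76 to 14.5 and 1.89 to 12.2. Icos, a costimulator of helper T cells, was 2.58 to 3.03 times as high across the 3 libraries, and Maf, a transcription factor of these cells, 2.96 to 6.49 times. Tcf7, which encodes TCF-1, stood between 1.02 and 1.15 times. In Foxp3-positive T cells with a Ctla4 UMI, Pdcd1 was 2.20 to 3.86 times and Icos 3.44 to 5.16 times that of barcodes without one. The Pdcd1 intervals spanned 1 in free OVA (0.882 to 7.07) and citrate buffer (0.915 to 34.4), and Lag3 was 0.440 times in free OVA, from 8 and 4 UMIs. Median depth with and without Ctla4 was 5047 and 4554 UMIs in LysoPS-OVA, 5770 and 2034 in free OVA and 4479 and 4153 in citrate buffer. Median depth with and without Pdcd1 was 6290 and 5806 UMIs in LysoPS-OVA, 6364 and 6457 in free OVA and 6085 and 5237 in citrate buffer. These ratios describe barcodes of one library each, were chosen after the data were seen and compare no feeding groups.

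**Figure D3:**
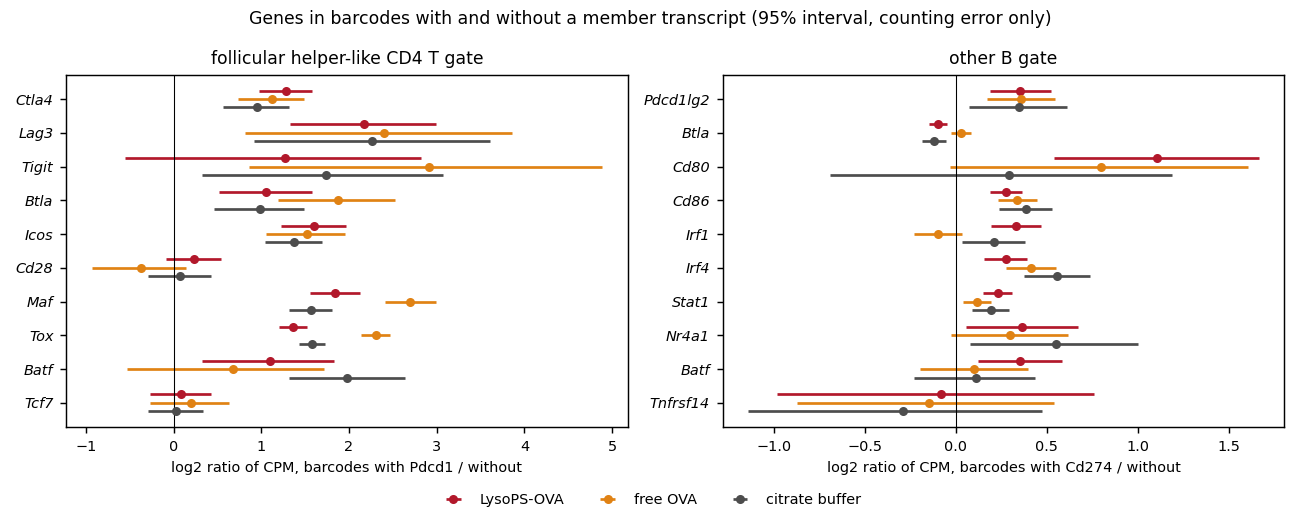
Log2 ratio of CPM between barcodes with and without a Pdcd1 UMI (left, follicular helper-like CD4 T gate) or a Cd274 UMI (right, other B gate), with 95% intervals, for LysoPS-OVA, free OVA and citrate buffer. Lag3 lies 4.50 to 5.27 times higher in barcodes with Pdcd1, and Pdcd1lg2 1.27 to 1.28 times higher in those with Cd274.

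Ctla4 was also higher in the other T gate, the T barcodes that met no subset rule. It stood at 214 CPM in LysoPS-OVA (205 to 224), 175 in free OVA (165 to 186) and 122 in citrate buffer (116 to 129). LysoPS-OVA was 1.76 times citrate buffer (1.64 to 1.88). The gate can hold cells of the named subsets whose marker transcripts were not captured, regulatory T cells among them. Foxp3-positive T barcodes were 2.71%, 1.43% and 1.43% of those kept in LysoPS-OVA, free OVA and citrate buffer. The part of such cells in the ratio was not tested. Median depth in this gate was 4529, 2384 and 3264 UMIs, and low Malat1 barcodes made up 12.04%, 49.5% and 17.4%. Naive CD4 T cells held 119, 88.5 and 94.2 CPM, LysoPS-OVA being 1.26 times citrate buffer (1.15 to 1.38). In effector-memory CD8 T cells it was 1.43 times (1.05 to 1.95). Germinal centre B cells gave 18, 15 and 43 Ctla4 UMIs, so that citrate buffer stood high at 23.3 CPM, against 11.6 in LysoPS-OVA and 7.72 in free OVA. The 6 T cell markers in this gate summed to 101 CPM in LysoPS-OVA, 59.2 in free OVA and 157 in citrate buffer, the same order as Ctla4, and their part in it was not tested.

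**Figure D4:**
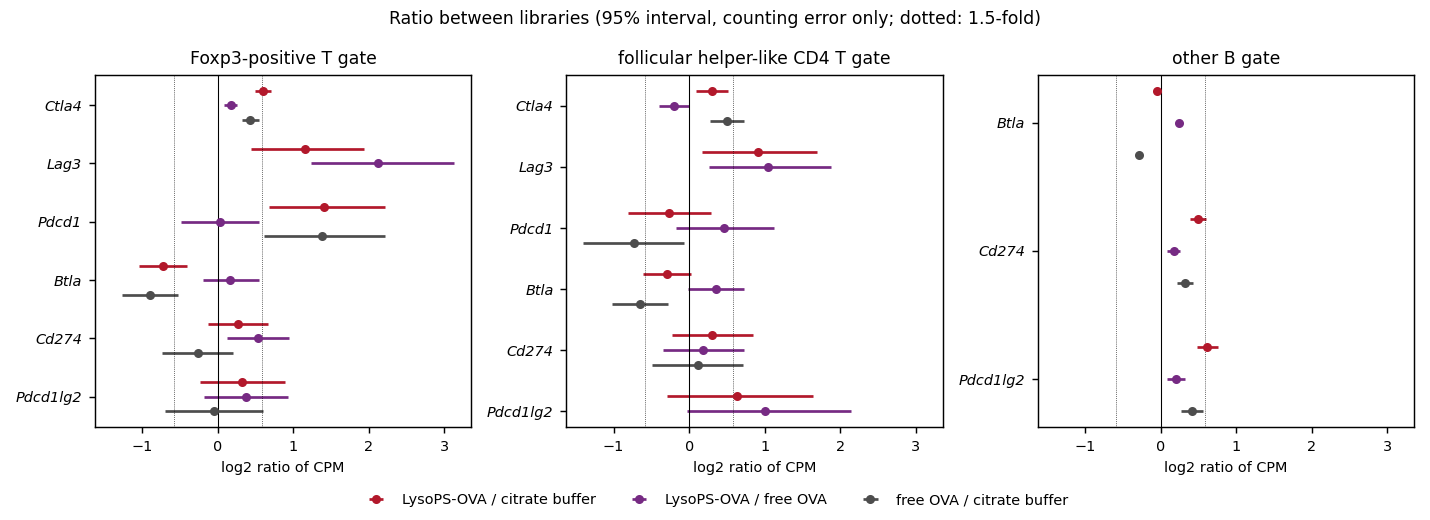
Log2 ratio of CPM between libraries (points, with 95% intervals for counting error; dotted lines at 1.5-fold) for the genes that met the minimum in 3 gates. In Foxp3-positive T cells of LysoPS-OVA, Lag3 and Pdcd1 lie right of the line against citrate buffer and Btla lies left of it. For free OVA against citrate buffer Pdcd1 and Btla do so too, and Lag3 missed the minimum. In other B Pdcd1lg2 of LysoPS-OVA is at 1.53 times citrate buffer.

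B cells outside the germinal centre carried most Btla, and both ligand genes were found there too. Of Cd274 UMIs, 58.1%, 56.9% and 36.1% lay in B gates in LysoPS-OVA, free OVA and citrate buffer, and 32.4%, 21.1% and 38.4% in T gates. For Pdcd1lg2, B gates held 73.2%, 63.3% and 49.6%. Averaged over libraries, Cd274 ranged from 35.1 CPM in germinal centre B to 71.6 CPM in macrophages among the compared gates. Of all Btla UMIs, 81.0% in LysoPS-OVA, 75.8% in free OVA and 64.0% in citrate buffer lay in B gates. Its level in other B was 576, 489 and 598 CPM, with LysoPS-OVA 0.964 times citrate buffer (0.941 to 0.987) and free OVA 0.817 times (0.797 to 0.838). Cd274 stood at 80.4 CPM in LysoPS-OVA (77.1 to 83.7), 71.4 in free OVA (68.2 to 74.7) and 57.0 in citrate buffer (53.8 to 60.4). Pdcd1lg2 stood at 46.1, 40.0 and 30.1 CPM. Both genes kept the same order of libraries without overlap of their intervals. LysoPS-OVA was 1.41 times (1.31 to 1.51) and free OVA 1.25 times (1.16 to 1.35) citrate buffer for Cd274, and for Pdcd1lg2 these were 1.53 times (1.39 to 1.69) and 1.33 times (1.20 to 1.47).

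Thinned shares gave the same order for both ligands in other B. A Cd274 UMI was found in 7.37% of LysoPS-OVA barcodes (6.70 to 8.07), 5.88% of free OVA (5.23 to 6.59) and 4.76% of citrate buffer (4.19 to 5.39), from 5784, 4708 and 5038 barcodes after 15, 188 and 30 shallower ones were left out. Unthinned Cd274 shares were 25.5%, 23.2% and 16.6%. In naive CD4 T cells thinned Cd274 shares were 3.45%, 2.52% and 4.17%. Pdcd1lg2 was found in 4.58%, 3.65% and 2.70% thinned, and 17.3%, 16.5% and 9.94% unthinned. In naive CD4 T cells, which should lack Pdcd1lg2, thinned shares were 0.558%, 0.291% and 0.668%, at median UMIs of 5248, 6210 and 4285 against 4439, 5270 and 3654 in other B. The Btla shares in other B were 40.3%, 35.0% and 40.6%. Migratory DC markers in other B summed to 15.9 CPM in LysoPS-OVA, 25.4 in free OVA and 40.7 in citrate buffer. All 6 were seen in each library, and their part in the ligand levels was not tested.

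**Figure D5:**
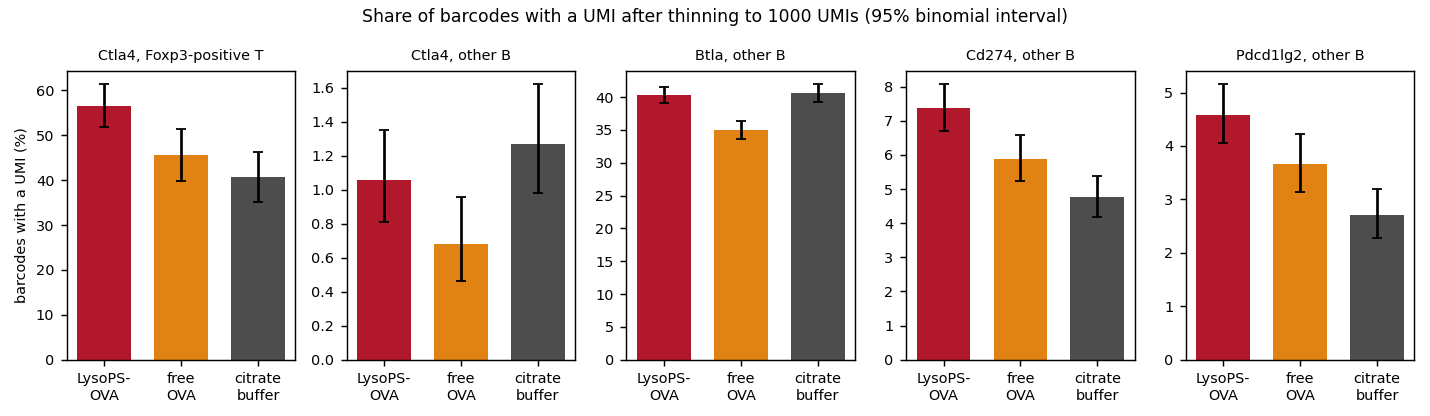
Share of barcodes with a UMI (%) after thinning to 1000 UMIs, with 95% binomial intervals, for LysoPS-OVA, free OVA and citrate buffer; each panel has its own axis from 0. Ctla4 lies between 40.7% and 56.6% in Foxp3-positive T and between 0.680% and 1.27% in other B, and Cd274 and Pdcd1lg2 in other B are highest in LysoPS-OVA.

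In migratory DCs, which carry antigen from the gut, the ligand genes of LysoPS-OVA stood near citrate buffer. Cd274 stood at 66.9 CPM in LysoPS-OVA (55.4 to 80.1), 56.0 in free OVA (49.9 to 62.7) and 68.7 in citrate buffer (59.8 to 78.6), and LysoPS-OVA was 0.973 times citrate buffer (0.770 to 1.22) and free OVA 0.815 times (0.682 to 0.976). Pdcd1lg2 stood at 47.6, 46.1 and 49.6 CPM, LysoPS-OVA being 0.960 times citrate buffer (0.727 to 1.26). The Cd274 ratio of LysoPS-OVA to citrate buffer changed with the barcodes taken: among intact ones it was 1.88, from 30 and 35 UMIs. With every other lineage at 0 UMIs it was 1.57, from 40 and 23. In DC barcodes with a Cd274 UMI, Pdcd1lg2 was 2.58 times that of the rest in LysoPS-OVA, 2.80 times in free OVA and 2.71 times in citrate buffer. In other B this ratio was 1.28, 1.28 and 1.27.

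Havcr2 transcripts lay mostly outside T cells. In cDC1, the dendritic cells that cross-present antigen, 16 UMIs gave 119 CPM in LysoPS-OVA, 51 gave 111 in free OVA and 42 gave 182 in citrate buffer, from 34, 120 and 47 barcodes. Unthinned, 23.5%, 29.2% and 34.0% of cDC1 barcodes held one, against 0.207%, 0.123% and 0.237% of other B. Macrophages gave 28.1, 21.9 and 71.5 CPM from 2, 5 and 13 UMIs. Between 39.8% and 59.8% of Havcr2 UMIs lay in barcodes with no gate. Lag3 in plasmacytoid DCs, a type known to express it, rested on 5, 3 and 3 UMIs.

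Over all gates, the 8 genes and 10 gates gave 34 pairs that met the minimum for LysoPS-OVA against citrate buffer. Of these, 7 were at least 1.5-fold higher and 3 at least 1.5-fold lower in LysoPS-OVA, where 3.5% and 6.22% of the 53807 gene and gate pairs of all genes were (9.72% either way). Against free OVA, LysoPS-OVA was higher in 3 and lower in 0 of 31 pairs, against 4.93% and 2.45% of all pairs (7.39% either way). Free OVA was higher than citrate buffer in 1 and lower in 5 of 29 pairs, against 2.51% and 8.34% (10.8% either way). That split was 3 higher and 3 lower with median-of-ratios scaling. 

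Gates with at least 1 such gene are read against all genes of the same gate. Within the Foxp3-positive T gate 3 of 6 genes were higher (Ctla4, Lag3 and Pdcd1) and 1 lower (Btla) in LysoPS-OVA than in citrate buffer, where 5.02% of all genes were higher and 5.19% lower. Their median log2 ratio was 0.46, against -0.05 for all genes. In follicular helper-like CD4 T cells 2 of 6 were higher (Lag3 and Pdcd1lg2) and 0 lower, against 4.58% and 12.7% of all genes. The Pdcd1lg2 interval there spanned 1 (0.815 to 3.10). Other B had 1 of 3 higher (Pdcd1lg2), against 2.03% higher and 1.63% lower, and other T 1 of 3 higher (Ctla4), against 1.42% and 3.69%. Naive CD8 T cells had 1 of 3 lower (Btla), against 1.26% higher and 3.94% lower, and germinal centre B cells 1 of 4 lower (Ctla4), against 4.24% and 4.41%.

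Between LysoPS-OVA and free OVA, 1 of 6 genes was higher in Foxp3-positive T cells (Lag3), where 4.64% of all genes were higher and 3.09% lower. In follicular helper-like CD4 T cells 2 of 6 were higher (Lag3 and Pdcd1lg2), where 4.97% of all genes were higher and 4.29% lower. The Pdcd1lg2 interval there spanned 1 (0.980 to 4.42). Between free OVA and citrate buffer, Foxp3-positive T cells had 1 of 5 higher (Pdcd1) and 1 lower (Btla), against 5.24% and 8.42%. Follicular helper-like CD4 T cells had 2 of 4 lower (Pdcd1 and Btla), against 4.06% higher and 13.2% lower. Naive CD8 T cells had 1 of 3 lower (Btla), against 1.23% and 3.47%, and germinal centre B cells 1 of 3 lower (Ctla4), against 3.53% and 3.89%. Genes passed the minimum through their higher library, so these counts describe the genes that met it and not all 8. The comparisons share libraries and are not independent.

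Related genes were read from 4 lists in 3 gates, LysoPS-OVA against citrate buffer, with some ratios of free OVA to citrate buffer beside them. In the Foxp3-positive T gate, where 5.02% of all genes were at least 1.5-fold higher and 5.19% lower, 7 of 16 binding partners and costimulators met the minimum, and 2 were at least 1.5-fold higher and 0 lower. Icos, a costimulator, was 376 against 248 CPM (1.51 times) and Cd86, a ligand of CTLA-4, 33.1 against 17.9 CPM (1.85 times). Cd28 and Cd226, both costimulators, stood at 1.24 times each. Of 8 signalling and trafficking genes 0 passed, with Themis at 0.706, Trat1 at 0.750, Cmtm6 at 0.777 and Sh2d1a at 1.36 times. Of 14 regulators that met the minimum 4 were higher and 1 lower. Tox2 was 1.97 times, Prdm1, which encodes Blimp-1, 1.79 times, Batf 1.67 times and Nr4a1, induced by antigen receptor signals, 0.424 times. Among 6 other inhibitory receptors 1 was higher and 1 lower, with Cd101 at 1.60, Cd200 at 0.525, Vsir at 1.36 and Cd200r1 at 0.846 times. Several of these shifts were shared by free OVA. Against citrate buffer it had Cd86 at 2.49, Tox2 at 2.04, Batf at 1.62, Cd101 at 2.21 and Cd200 at 0.596 times. Icos was nearer 1 there, at 1.18 times.

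In follicular helper-like CD4 T cells 4.58% of all genes were higher and 12.7% lower, with a median log2 ratio of -0.14. The list medians were -0.43 for regulators, -0.27 for signalling genes, -0.27 for other inhibitory receptors and -0.06 for binding partners. Of 13 regulators 0 were higher and 6 lower, with Nr4a3 at 0.267, Irf4 at 0.568 and Jak2 at 0.575 times, and Tox2, which was used to define the gate, among the 6. Of 6 binding partners 1 was higher, Cd226 at 1.66 times, and 1 lower, Icos at 0.621 times, with Hmgb1 at 0.783 and Cd96 at 0.881. Of 8 signalling genes 1 was lower, Sh2d1a, an adaptor that helper T cells need to help B cells, at 0.502 times, with Lrba at 0.710, Trat1 at 0.775 and Themis at 0.808. Of 5 other inhibitory receptors 0 passed, with Cd200 at 0.753, Cd5 at 0.763, Cd200r1 at 0.826 and Cd47 at 1.16 times. In free OVA against citrate buffer 6 of 13 regulators were lower too, with Irf4 at 0.486 and Jak2 at 0.574 times. Icos stood at 0.685, Sh2d1a at 0.568 and Cd226 at 1.63 times in that pair.

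In other B, where 2.03% of all genes were higher and 1.63% lower, 1 of 5 binding partners was higher and 1 lower. Cd86 was 168 CPM in LysoPS-OVA and 103 in citrate buffer (1.63 times, 1.54 to 1.71), Cd226 0.526 times, Lgals3 0.924 times and Hmgb1 0.970 times. Of 10 regulators 1 was higher and 2 lower: Irf4, a factor of activated B cells, was 1.51 times, Tcf7 0.410 times and Maf 0.489 times, with Tox at 0.768. Of 6 signalling genes 1 was lower, Themis at 0.658 times, with Inpp5d at 1.22, Cmtm6 at 1.07 and Ptpn6 at 0.9502. Of 6 other inhibitory receptors 0 passed, with Fcgr2b at 1.43, Siglecg at 1.17, Cd72 at 0.881 and Cd22 at 0.907 times. In free OVA against citrate buffer Tcf7 was 0.237, Maf 0.414, Themis 0.454 and Cd226 0.498 times, and Cd86 was 1.15 times. The 6 T cell markers in other B summed to 106 CPM in LysoPS-OVA, 64.2 in free OVA and 215 in citrate buffer, and their part in the lower values of Tcf7, Themis, Maf and Cd226 was not tested.

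Genes whose pattern was most like each of the 8 were named by Pearson r of log2(CPM + 10) over 36 gate and library points, a description of points that share libraries. Lag3, Tigit and Pdcd1lg2 did not reach 50 CPM at any point, the level asked of the other genes, so their values rest on low counts. For Ctla4 these were Gm20275 (0.925), Icos (0.913) and Tiam1 (0.905). Pdcd1 had Ptpn13 (0.886), Atp2b4 (0.870) and Rora (0.847), and Tigit had Pdcd1 (0.816), Ptpn13 (0.802) and Nfia (0.792). For Lag3, Gpm6b (0.767) and Batf (0.750) are given. Havcr2 had Slamf8 (0.958), Psap (0.902) and Treml4 (0.901), and Btla had Arhgap17 (0.923), Gm31243 (0.904) and Baz2b (0.903). Pdcd1lg2 had Tank (0.881), Zfp36l1 (0.796) and Mthfs (0.772), and Cd274 had Serpinb6a (0.657), Clptm1 (0.653) and Plekhm2 (0.652).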

How the data were processed

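Raw UMI counts per gene and barcode, deposited by the authors, were used; per the file headers and the submitters' processing notes they were made with Cell Ranger 7.2.0 against mm10. Which annotation and intron setting were used is not given in the sources used here. Kit chemistry was 3′, with 10000 cells loaded per library, per the labels' protocols. Barcodes under 300 genes or above 10% mitochondrial UMIs were dropped. Scrublet in scanpy 1.11.5, at an expected rate of 0.8% per 1000 barcodes, called 1298 doublets (7.49%) in LysoPS-OVA, 1382 (5.92%) in free OVA and 4477 (17.0%) in citrate buffer, which were removed.

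A barcode entered a lineage when its markers summed to at least 3 UMIs and at least 3 times the next lineage; 80.9%, 54.8% and 65.9% of barcodes were gated. Subsets of T and B cells were cut by further markers. UMIs were summed per library and gate. Ratios were given where the higher library had at least 30 UMIs and 20 CPM, and 1.5-fold was the threshold. Barcodes are not replicates, so no test was run. The ratio step was tested on simulated data. Members and gene lists were chosen with earlier results of these data known. Named genes were the 8 members, from each list in the gates described the 4 genes past the minimum and farthest from a ratio of 1, and the 3 most alike genes per member, of which 1 is not reported here. The alternatives changed gate minimum and purity, mitochondrial maximum, doublets, intact barcodes, scaling, summary, filter, Foxp3 minimum and thinning. Computation used scipy 1.17.1 and numpy 2.4.6 in Python 3.11.15, with tables in pandas 2.3.3 and plots in matplotlib 3.10.9.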

Additional observations from a re-analysis of the deposited data

Results flagged for a closer look

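Between gates of the same pair of libraries, some genes lay on opposite sides of a ratio of 1 with intervals that leave 1 out on both sides. Ctla4 in LysoPS-OVA was 1.52 times citrate buffer in Foxp3-positive T cells and 1.76 times in other T cells, and 0.498 times in germinal centre B cells, where 18 and 43 UMIs were counted. Pdcd1 in free OVA was 2.61 times citrate buffer in Foxp3-positive T cells and 0.605 times in follicular helper-like CD4 T cells. These differences between gates were not tested, since each group is 1 library. In germinal centre B cells Ctla4 stood at 11.6 CPM in LysoPS-OVA and 23.3 in citrate buffer, against 10.1 and 13.3 CPM in other B. T cell markers in germinal centre B cells summed to 101 CPM in LysoPS-OVA and 157 in citrate buffer.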

How the results depend on the processing

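No paired analysis was possible because each group is 1 library. Of 19 ratios past 1.5-fold, 12 stayed past it under every alternative that could be computed and 7 fell short under at least 1. Those of Lag3 and Pdcd1 in Foxp3-positive T cells stayed past it. The lowest Lag3 ratio of LysoPS-OVA to citrate buffer, in intact barcodes, was close to the threshold at 1.53, and no interval is given for it. Ctla4 there, 1.52 for LysoPS-OVA over citrate buffer, was 1.21 with every other lineage at 0 UMIs, 1.11 with at least 2 Foxp3 UMIs, 1.63 with doublets kept, 1.66 as the mean of per-barcode CPM and 1.81 with exactly 1 Foxp3 UMI, the last chosen after seeing the data. Cd274 in migratory DCs, 0.973, was 1.57 with every other lineage at 0 UMIs and 1.88 in intact barcodes. The counts past 1.5-fold of 10, 3 and 6 (LysoPS-OVA against citrate buffer, LysoPS-OVA against free OVA, free OVA against citrate buffer) were 28, 25 and 31 without a filter on low values, where small counts enter. With every other lineage at 0 UMIs the first was 6 and the third 2, over 6 gates, and as means of per-barcode CPM the second was 7. The others that fell short, for LysoPS-OVA over citrate buffer, were Pdcd1lg2 in other B (1.46 to 1.58) and in follicular helper-like CD4 T cells (1.26 to 1.90) and Btla in naive CD8 T cells (0.503 to 0.721). For free OVA over citrate buffer they were Btla in Foxp3-positive T (0.520 to 0.685), follicular helper-like CD4 T (0.518 to 0.730) and naive CD8 T cells (0.478 to 0.682). Thinned to 2000 UMIs, 12 of 15 shares moved beyond their intervals, by construction, since more UMIs per barcode raise such shares. Except where a construction is named, the cause was not tested. Depth limits Lag3, Tigit, Pdcd1 and Havcr2, each with at most 340 UMIs per library.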

Other observations

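The number of the 6 receptor genes seen per barcode differed among T gates. Barcodes with a UMI of at least 2 receptors made up 39.4% of Foxp3-positive T cells in LysoPS-OVA, 27.4% in free OVA and 33.5% in citrate buffer. In follicular helper-like CD4 T cells these shares were 29.1%, 28.1% and 37.7%, and in naive CD4 T cells 9.69%, 7.45% and 8.51%. The shares were not thinned, and depth differed between the libraries.

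Effector-memory CD8 T cells held 12 Tigit UMIs in LysoPS-OVA, 1 in free OVA and 2 in citrate buffer, or 21.5, 2.95 and 2.50 CPM, from 90, 64 and 137 barcodes. Barcodes with low Malat1 made up 6.67%, 48.4% and 32.8% of this gate, and the median log2 ratio of LysoPS-OVA to free OVA over all genes was 0.28 there. Eomes, a transcription factor of memory CD8 T cells, stood at 143, 50.1 and 36.3 CPM in this gate, and Gzmb, a cytotoxic granule protease, at 16.1, 11.8 and 131 CPM. Il2ra, which encodes CD25, was read in Foxp3-positive T cells by Foxp3 UMIs. With 2 or more it stood at 417 CPM in LysoPS-OVA, 437 in free OVA and 685 in citrate buffer. That order was the reverse of the order for Ctla4, but the LysoPS-OVA and free OVA levels overlapped within counting error. With 1 Foxp3 UMI Il2ra stood at 218, 288 and 277 CPM, which was not the reverse order. These genes were picked after their values were seen, and their differences were not tested.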
